A study of Caenorhabditis elegans with 2 samples.

Results

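The genes described here encode the pyruvate dehydrogenase and 2-oxoglutarate dehydrogenase complexes of Caenorhabditis elegans. They are dld-1, which encodes the E3 subunit that both complexes share, dlat-1 and dlst-1, which encode the E2 subunits, and pdha-1, pdhb-1 and ogdh-1, which encode the E1 subunits. These 6 genes, of 19973 protein-coding genes of the nuclear genome, were chosen by name with the peaks of this experiment in view, so their values are a description and no test is attached to them. The study mapped by chromatin immunoprecipitation sequencing (ChIP-seq) where the eGFP-tagged product of R02D3.7 (rcat-1 in the annotation) lies on chromatin. It used 2 biological replicates of 1 group, whole L3 larvae of mixed sex of strain OP218, which carries the integrated transgene wgIs218 in an unc-119(ed3) background. No sample without the tag was analysed here, and whole larvae do not tell in which cells a site was occupied. A listed region therefore means only that the authors' caller listed it.

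The complexes of this family are large mitochondrial assemblies that oxidatively decarboxylate 2-oxoacids. E1, which carries thiamine diphosphate, removes carbon dioxide from pyruvate or 2-oxoglutarate. E2 passes the remaining acyl group, on a swinging lipoyl arm, to coenzyme A, and E3, a flavoprotein, reoxidises the lipoyl arm and reduces NAD+. Pyruvate dehydrogenase feeds acetyl-CoA into the citric acid cycle and 2-oxoglutarate dehydrogenase is a step of that cycle. The E3 subunit also serves the branched-chain 2-oxoacid dehydrogenase and, as the L protein, the glycine cleavage system.

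The sequences at the summits come first, since the dld-1 window lacks an exact copy of a word found at most of the other leading sites. Each is the 200 bases centred on the summit of the pooled list, read 5′ to 3′ on the strand of the named gene from the RefSeq WBcel235 genome, which has the coordinates of ce11. Capitals mark 5 elements of 8 letters defined below, on either strand. The dld-1 window is followed by exos-2 and hat-1, whose ranks are closest to those of dld-1, by the E2 gene dlst-1, and by pdhk-2, dbt-1 and sdhb-1, genes of the same metabolism.
dld-1 (chrIV:14464189-14464388, forward strand): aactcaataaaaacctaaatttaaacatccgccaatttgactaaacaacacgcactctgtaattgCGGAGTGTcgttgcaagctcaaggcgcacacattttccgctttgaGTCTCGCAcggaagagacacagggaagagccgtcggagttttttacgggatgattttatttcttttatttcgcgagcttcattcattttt
exos-2 (chrIV:6415253-6415452, forward strand): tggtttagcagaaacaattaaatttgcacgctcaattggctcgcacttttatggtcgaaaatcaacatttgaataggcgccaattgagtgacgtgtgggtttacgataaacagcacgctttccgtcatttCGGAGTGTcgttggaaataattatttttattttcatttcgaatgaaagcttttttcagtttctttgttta
hat-1 (chrIII:10407357-10407556, reverse strand): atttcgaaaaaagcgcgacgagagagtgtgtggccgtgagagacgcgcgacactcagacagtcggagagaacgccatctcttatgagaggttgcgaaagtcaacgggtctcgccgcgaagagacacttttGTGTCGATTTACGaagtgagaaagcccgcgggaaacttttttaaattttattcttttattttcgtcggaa
dlst-1 (chrV:6709186-6709385, reverse strand): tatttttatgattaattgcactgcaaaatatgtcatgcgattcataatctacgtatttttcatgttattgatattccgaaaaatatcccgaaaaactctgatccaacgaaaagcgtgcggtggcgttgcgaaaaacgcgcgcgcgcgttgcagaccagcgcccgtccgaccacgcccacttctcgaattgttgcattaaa
pdhk-2 (chrIII:8741557-8741756, reverse strand): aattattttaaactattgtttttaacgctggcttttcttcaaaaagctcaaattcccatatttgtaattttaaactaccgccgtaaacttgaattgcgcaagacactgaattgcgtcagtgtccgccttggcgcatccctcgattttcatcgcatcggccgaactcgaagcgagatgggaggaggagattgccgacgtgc
dbt-1 (chrII:7945246-7945445, reverse strand): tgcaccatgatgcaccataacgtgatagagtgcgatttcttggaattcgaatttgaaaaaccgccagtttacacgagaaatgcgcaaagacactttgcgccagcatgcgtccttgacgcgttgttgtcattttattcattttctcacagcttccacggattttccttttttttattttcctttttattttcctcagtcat
sdhb-1 (chrII:9352777-9352976, reverse strand): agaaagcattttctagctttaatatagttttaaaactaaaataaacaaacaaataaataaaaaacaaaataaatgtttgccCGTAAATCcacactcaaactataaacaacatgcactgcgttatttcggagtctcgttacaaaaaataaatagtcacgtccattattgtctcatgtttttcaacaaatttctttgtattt

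The authors deposited 4 lists of regions on ce11. The relaxed lists, which mix peaks with background, number 30000 regions in replicate 1, 29367 in replicate 2 and 30000 when both replicates were pooled. The strict list of 1584 peaks is thresholded by the irreproducible discovery rate (IDR), which weighs how well ranks repeat. How the replicates entered it is not known here, and they rank some of its peaks unequally. The IDR peaks described below at dld-1 and at genes of the same metabolism have the same signal and rank in the pooled list. The signal of a region is the authors' value, of unstated scale, so it is compared only within a list, where rank 1 is the highest signal. The replicates share a control alignment, so their lists are not fully independent. Promoter windows began 1000 bp before a transcript start and ended 200 bp after it, and a gene had a region when a summit lay in its window at any annotated start. Read depth is unknown, so no counting error can be given and precision is described by the replicates alone.

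The E3 gene dld-1 carried one of the leading peaks of the experiment, and none of the E1 and E2 genes had a peak in the IDR list. Thus 1 of the 6 genes had an IDR summit in its promoter window, against 7.72% of all protein-coding genes. The choice of the genes used these peaks, so nothing is read from that count. In the relaxed lists, which also hold background, 4 of the 6 genes had a summit in the window in the pooled list (41.7% of all genes), 4 in replicate 1 (41.4% of all genes) and 4 in replicate 2 (42.0% of all genes). Those were dld-1 and dlst-1 in all 3 lists, pdha-1 in the pooled list and replicate 2, pdhb-1 in the pooled list and replicate 1, and dlat-1 in each replicate but not in the pooled list. The gene ogdh-1 had none in any list.

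**Figure D1:**
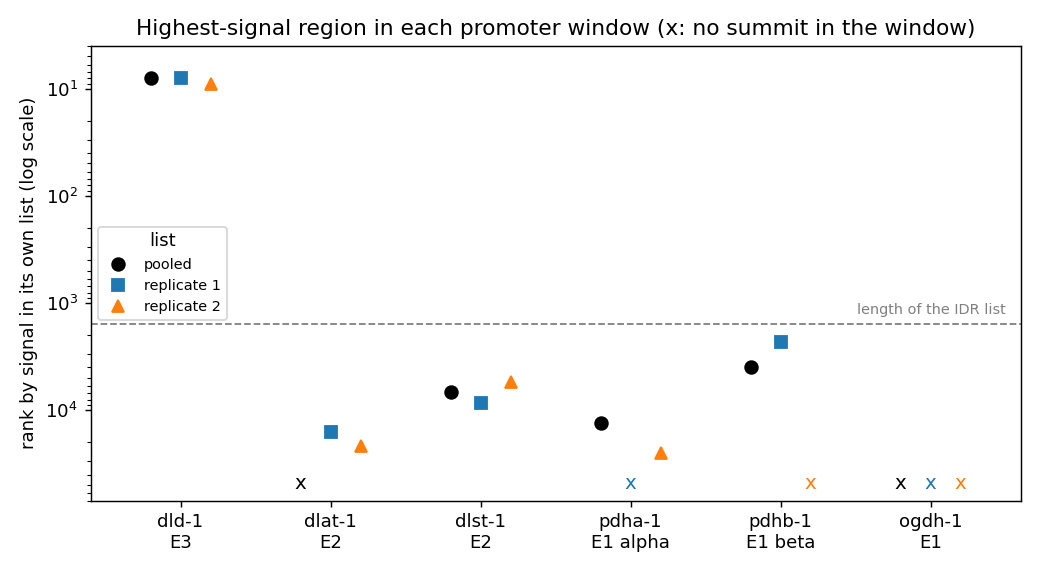
Rank by signal (log scale, rank 1 at the top) of the highest-signal region in the promoter window of each gene, in the pooled list (circles), replicate 1 (squares) and replicate 2 (triangles), with a cross where no summit lay in the window. The dld-1 region ranks 8, 8 and 9, and every other gene lies below the dashed line at 1584 regions, the length of the IDR list.

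The shared E3 subunit, dihydrolipoyl dehydrogenase, is encoded by dld-1 (WBGene00010794) on the forward strand of chromosome IV, 14464517 to 14469136. Its peak spanned 14464052 to 14464516 (465 bp) and ended 1 bp before the first annotated transcript start. The signal was 1798 in the IDR and pooled lists, where it ranked 8, 1160.5 in replicate 1, where it ranked 8, and 638 in replicate 2, where it ranked 9. Its place in the order thus differed by 1 between the replicates. Its −log10 q-value was 3.43 in the pooled list, a value shared by 1342 regions there, so the q-values do not order it among the leading peaks. The signals just above and just below it in the IDR list were 1886 and 1691, and 23 of the 1584 peaks exceeded 1000. The summit lay 228 bp upstream of the start in the pooled list, 229 bp in replicate 1 and 232 bp in replicate 2, so all summits fell within 4 bp.

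The dld-1 promoter is not shared with another coding gene. The next gene upstream, nspg-9, lies on the same strand and ends 418 bp before dld-1, and the summit fell in the window of no other protein-coding gene. A short noncoding RNA gene on the opposite strand, LLC1.120 (14464238 to 14464320, 83 bp, unclassified in RefSeq), covers the summit, which lies 31 bp downstream of the start of that gene. Whether the site belongs to dld-1 or to LLC1.120 cannot be told apart in a list of regions. A second annotated dld-1 start inside the gene, at 14466417, had only low-ranked regions before it. The nearest had a signal of 18.8 and rank 9091 in the pooled list, 8.75 and rank 10999 in replicate 1, and 9.05 and rank 18710 in replicate 2. Inside the gene the pooled list held 6 summits, the highest with a signal of 22.0 (rank 6382), against 1798 at the promoter.

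**Figure D2:**
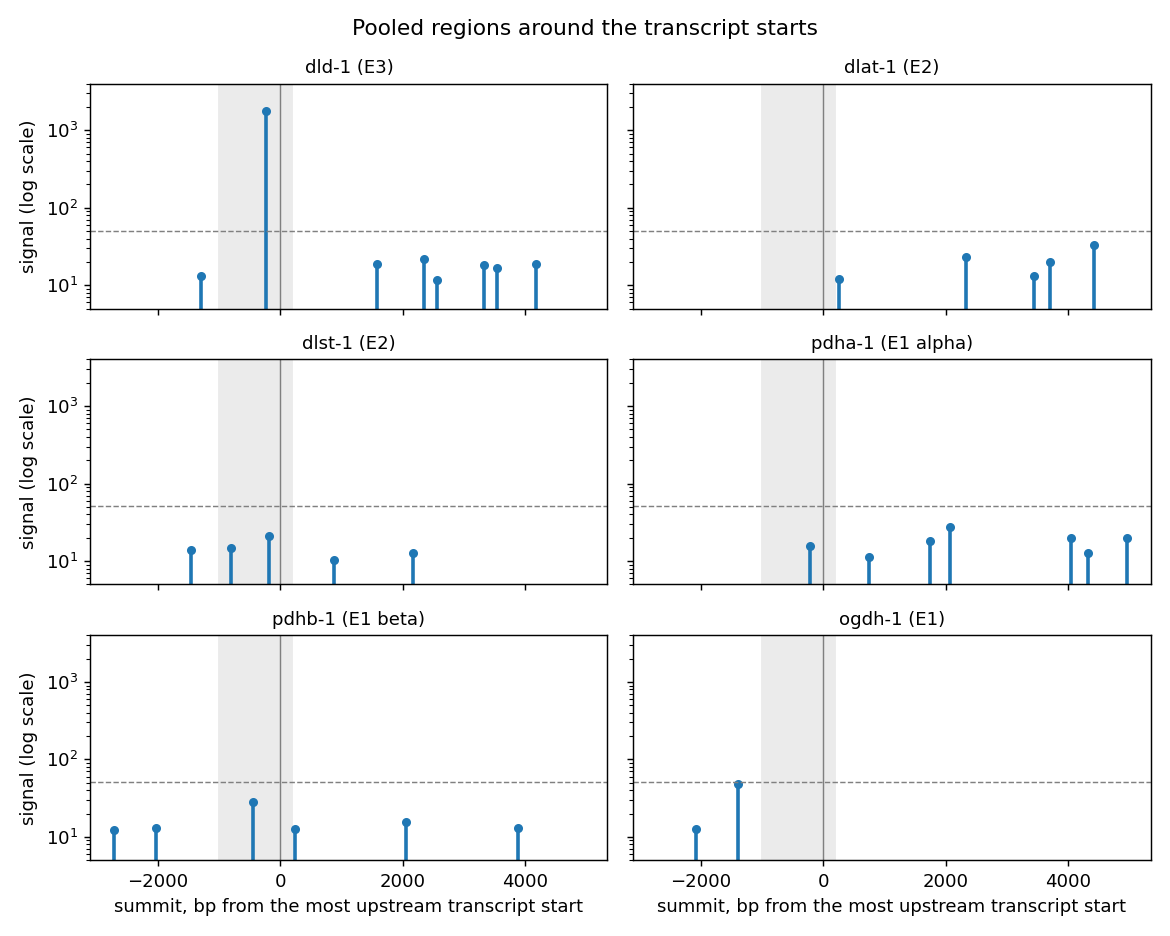
Signal (log scale) of pooled regions up to 3000 bp from each gene against the distance of the summit from the most upstream transcript start, in bp, as far as the axis reaches. The promoter window of that start is shaded and the dashed line is the lowest signal of the IDR list, 50.7. The dld-1 summit at 228 bp upstream stands at 1798, and in the other panels the highest is the ogdh-1 region 1387 bp upstream, at 48.5.

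Of the E2 genes, dlst-1 had low-ranked regions in every relaxed list and dlat-1 had none in the pooled list. The succinyltransferase of the 2-oxoglutarate complex, dlst-1 (WBGene00020950), lies on the reverse strand of chromosome V, 6707056 to 6709101. Its highest region had a signal of 21.4 and rank 6799 in the pooled list (6709094 to 6709477, summit 185 bp upstream), 9.92 and rank 8524 in replicate 1 (171 bp upstream) and 15.3 and rank 5521 in replicate 2 (231 bp upstream). The −log10 q-value was 0.554 in the pooled list. A further region with its summit inside the neighbouring gene sna-1 ranked 15790 in the pooled list (803 bp upstream), 17955 in replicate 1 (801 bp) and 23596 in replicate 2 (871 bp). The nearest IDR peak to dlst-1 lay 76196 bp away.

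The acetyltransferase of the pyruvate complex, dlat-1 (WBGene00009082), lies on the reverse strand of chromosome V, 14445323 to 14447290. Replicate 1 listed a region with a signal of 7.23 and rank 15937, 72 bp upstream of the start, and replicate 2 listed one with a signal of 8.44 and rank 21426, 229 bp upstream. The summits thus lay at different places, and both regions also fall in the window of fntb-1, a farnesyltransferase gene that starts 361 bp away on the other strand. In the pooled list the nearest summit to the dlat-1 start was 259 bp downstream (signal 12.1, rank 22814), just outside the window.

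The E1 genes showed no region that both replicates listed in the promoter window. The beta subunit of pyruvate dehydrogenase is encoded by pdhb-1 (WBGene00015413; IV, 3399672 to 3403908). Its region (3399032 to 3399415) had a signal of 27.9 and rank 4003 in the pooled list and 19.6 and rank 2307 in replicate 1, the highest signals of any E1 or E2 promoter in those lists. The summit, 448 bp upstream, lies in the 5′ UTR of dyf-3, a ciliary gene on the other strand whose window holds it too. Replicate 2 had no summit in the window, and its nearest lay 202 bp downstream of the start, just outside the 200 bp limit, with a signal of 9.13 and rank 18378. The alpha subunit gene pdha-1 (WBGene00011510; II, 8066285 to 8068184) had a region of signal 15.8 and rank 13351 in the pooled list, 214 bp upstream in the 3′ UTR of the neighbouring ufd-2, and one of signal 7.75 and rank 25112 in replicate 2, 71 bp upstream. Replicate 1 listed none there.

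The gene for E1 of the 2-oxoglutarate complex, ogdh-1 (WBGene00020679; IV, 4696979 to 4704011, reverse strand), had no summit in the window of either annotated start. Of the pooled regions within 3000 bp of the E1 and E2 genes, the highest was nonetheless near ogdh-1. An intergenic region 1387 bp upstream (4705206 to 4705589) had a signal of 48.5 and rank 1695 in the pooled list, just below the lowest IDR signal of 50.7. Its signal was 17.0 with rank 2905 in replicate 1 and 33.7 with rank 1260 in replicate 2. The gene body of ogdh-1 held 1 pooled summit, of signal 11.25 and rank 25559.

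Beyond dld-1 the lists gave no stable order of the genes. In replicate 1 pdhb-1 came before dlst-1 and dlat-1, whereas in replicate 2 dlst-1 came first and pdhb-1 had no summit in the window. The order of dlst-1 before dlat-1 held in both. The regions within 3000 bp of each gene in the pooled list numbered 9 for dld-1, 7 for pdha-1, 7 for pdhb-1, 6 for dlat-1, 5 for dlst-1 and 4 for ogdh-1. Apart from the dld-1 peak, none of them was in the IDR list.

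The peaks most like that of dld-1 over the replicates belonged to genes of other functions. Likeness was the sum over the 2 replicates of the absolute difference in log2 rank from dld-1. The closest gene was exos-2, an RNA exosome subunit gene (0.322, rank 9 in replicate 1 and 10 in replicate 2). It was followed by hat-1, which encodes a type B histone acetyltransferase, and M03C11.3, which share a peak (0.585, ranks 6 and 8). Next came rpl-15, a gene of the large ribosomal subunit, and K11H12.8, which also share a peak (0.684 from dld-1, ranks 10 and 7). The signals of dld-1 were 1160.5 in replicate 1 and 638 in replicate 2, against 1030.5 and 521 at exos-2.

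The dld-1 site lacked an exact copy of the 8-letter word that most leading peaks hold and carried exact copies of 2 others. The elements are the 8-letter words, on either strand, most frequent at the first 100 IDR summits relative to flanking windows centred 500 bp to each side, keeping words that overlap a better one by fewer than 5 letters. They were derived from these peaks, dld-1 included, so their shares describe the set and are no evidence for it. Element 1, CGTAAATC, was in 58 of the first 100 windows and in 18 of the first 20, but not in the dld-1 window nor anywhere in its 465 bp region. It was in 10.7% of all 1584 IDR windows, 1.71% of windows at pooled summits below the IDR list, 1.10% of flanking windows and 1.25% of the 200 bases upstream of all coding genes. The dld-1 window held element 2, ACACTCCG, as its reverse complement, centred 32 bp before the summit, and element 4, GTCTCGCA, centred 13 bp after it.

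Both elements of the dld-1 site were rarer among the leading peaks than element 1. Element 2 was in 19 of the first 100 windows, 4.10% of IDR windows, 0.405% of windows below the IDR list, 0.347% of flanks and 0.621% of upstream windows of all genes. Among the first 20 peaks it was found at dld-1 and exos-2, which were also the peaks without element 1. Element 4 was in 16 of the first 100 windows, 4.55% of IDR windows, 0.545% of windows below the IDR list, 0.600% of flanks and 0.526% of all upstream windows, and in 6 of the first 20. The dld-1 window held no exact copy of element 3, ATCGACAC (21 of the first 100 windows), or of element 5, TACGGTAA (16 of the first 100 windows). Overlapping its element 2, however, it reads GTGTCGTT, which differs at 1 letter from GTGTCGAT, the reverse complement of element 3. Of 9 other motifs searched on both strands, the dld-1 window held the CCAAT box, which is in 29.8% of IDR windows and 34.3% of flanks. It did not hold the E-box CACGTG, nor the cyclic AMP response motif TGACGTC, nor the forkhead motif TGTTTAC, nor the GC box GGGCGG, nor the E2F motif TTCCCGC, nor the word ACTACAA. It also lacked GAGAGA, which is in 23 of the first 100 windows, 39.2% of IDR windows and 10.9% of flanks. The word CTGCGTC, absent too, is in 4 of the first 100 windows, 18.0% of IDR windows and 1.52% of flanks.

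**Figure D3:**
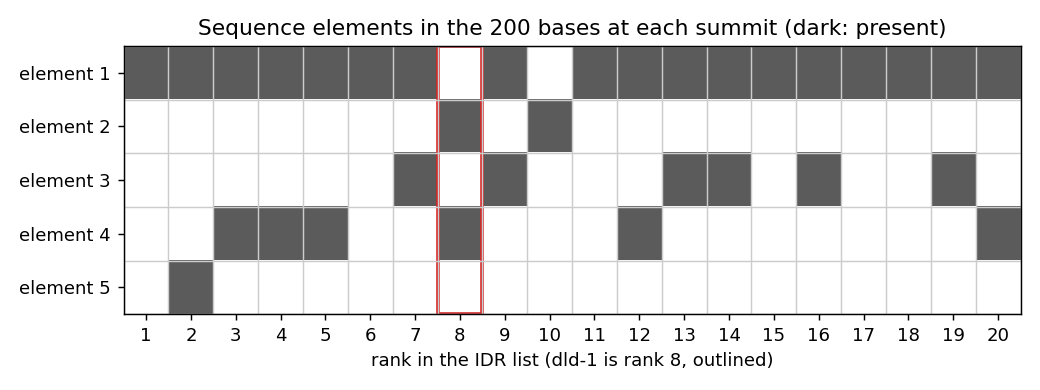
Presence (dark) of exact copies of the 5 elements, on either strand, in the 200 bases at each of the first 20 IDR summits, ordered by rank on the horizontal axis, with dld-1 (rank 8) outlined. Element 1 is present at 18 of the 20 and absent at ranks 8 and 10, dld-1 and exos-2, where element 2 is present.

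Around element 2 the dld-1 and exos-2 windows share a run of 13 letters, CGGAGTGTCGTTG, centred 257 bp upstream of the dld-1 start. The longest runs that dld-1 shares with hat-1 and rpl-15 are other stretches. With hat-1 it is TTCTTTTATTT (11 letters, 154 bp upstream of the dld-1 start), found in 5 IDR windows and 55 windows below the IDR list. With rpl-15 it is AACACGC (7 letters, 279 bp upstream). The 13-letter run was in 9 of the first 100 IDR windows and 28 of 1584 (1.77%). It was in 0.0845% of windows at pooled summits below the IDR list, 0.0316% of flanks and 0.185% of upstream windows of all genes. Like the elements, the run was taken from these peaks, so its shares describe the set and are no evidence for it. Of the promoter windows of the 6 genes, those of dld-1 and dlat-1 hold it and those of the other 4 do not. The dlat-1 copy lies 306 bp upstream of the dlat-1 start and 55 bp upstream of that of fntb-1. It is shown here with its 100 bases, on the strand of dlat-1 and with the run in capitals, because no pooled region covers it.
dlat-1 (chrV:14447546-14447645, reverse strand): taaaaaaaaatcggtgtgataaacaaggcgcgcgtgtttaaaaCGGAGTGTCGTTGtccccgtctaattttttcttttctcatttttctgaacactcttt

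The same 13 letters thus stood under a peak of rank 8 at dld-1 and under no pooled or replicate 1 region at dlat-1. The nearest summits to the dlat-1 copy were 565 bp away in the pooled list and 234 bp in replicate 1. Only the replicate 2 region, of rank 21426, covered the dlat-1 copy, with its summit 77 bp off. Outside the run the dld-1 and dlat-1 sites are not identical. The dld-1 and exos-2 windows also share letters before the run, at the same spacing, and the dlat-1 copy lacks some of these. Whether those letters matter for the peak was not tested. Within the 1201 bp windows of pdha-1, pdhb-1, ogdh-1 and dlst-1 no exact copy of the 5 elements was found around any annotated start. The base composition of the dld-1 window, 41.5% G and C, was near the median of IDR windows (43.0%) and above that of their flanks (36.5%).

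Genes around the complexes were examined by 3 lists of 42 matched genes, of which 12 had an IDR summit in a promoter window. The background is again 7.72% of all protein-coding genes. In the list of pyruvate transport, use and control 1 of 9 genes had one, in the list of lipoate attachment and related complexes 2 of 12, and in the citric acid cycle 9 of 21. Among the 1584 highest regions of replicate 2 alone, without replicate 1, these counts were 4, 2 and 6 in the same order. Among those of replicate 1 alone, without replicate 2, they were 1, 4 and 7. The share of all genes with such a region is not given here, and 7.72% does not apply to these counts. In the pooled list, where 41.7% of all genes had a summit, the counts were 8 of 9, 10 of 12 and 17 of 21. The median gene of these lists had a highest pooled signal of 31.8, 25.8 and 33.6 in that order, whereas the median protein-coding gene had no pooled region in its window. The lists were chosen with earlier results of these data known, so the counts are descriptive.

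Close to the complexes, pdhk-2, dbt-1 and lias-1 had an IDR peak. In the lists of pyruvate genes and of lipoate genes, 8 of 9 and 10 of 12 had none, so no shared role is read from these peaks. Genes without one include pdp-1, also of pyruvate control (pooled rank 3197), and the lipoate attachment genes lipt-1 (pooled rank 3939) and lpl-1 (no region in any list). The pyruvate dehydrogenase kinase gene pdhk-2, whose product inactivates E1 by phosphorylation, had a signal of 250.5 (rank 190, 245 bp upstream), and ranked 198 in replicate 1 and 175 in replicate 2. The gene dbt-1, which encodes E2 of the branched-chain complex and so uses the same E3, had a signal of 138 (rank 402, 140 bp upstream), and ranked 377 and 431 in replicates 1 and 2. The lipoyl synthase gene lias-1 had a signal of 92.5 (rank 685, 251 bp upstream), and ranked 598 and 875. None of the 3 peaks fell in the window of another coding gene. The branched-chain E1 genes had no IDR summit. Just below the IDR list were gcst-1, the T protein of glycine cleavage (signal 47.5, rank 1754), bckd-1A, the branched-chain E1 alpha gene (38.5, rank 2360), and ogdh-2, an E1 homologue (32.8, rank 3040). The replicates differed at all 3 genes. In replicate 1 gcst-1 ranked 866 and bckd-1A 1200, while in replicate 2 gcst-1 ranked 5527 and bckd-1A had no summit in the window. The highest region at ogdh-2 ranked 27942 in replicate 1, 369 bp upstream, and 1722 in replicate 2, 46 bp upstream.

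The pyruvate carriers and gluconeogenic genes stayed below the IDR list. Their highest regions were at pck-2, a phosphoenolpyruvate carboxykinase gene (signal 47.7, rank 1735), and at mpc-2 (47.7, rank 1740) and mpc-1 (37.2, rank 2478), which encode the mitochondrial pyruvate carrier. The highest region in each window ranked 4589 at pck-2, 4606 at mpc-2 and 4080 at mpc-1 in replicate 1, and 1061, 1156 and 1267 at these genes in replicate 2. These were not always the same region. The mpc-1 summit lay 683 bp upstream in the pooled list and 672 bp in replicate 1, but 143 bp in replicate 2. That of mpc-2 lay 486 bp upstream in the pooled list, 816 bp in replicate 1 and 581 bp in replicate 2.

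**Figure D4:**
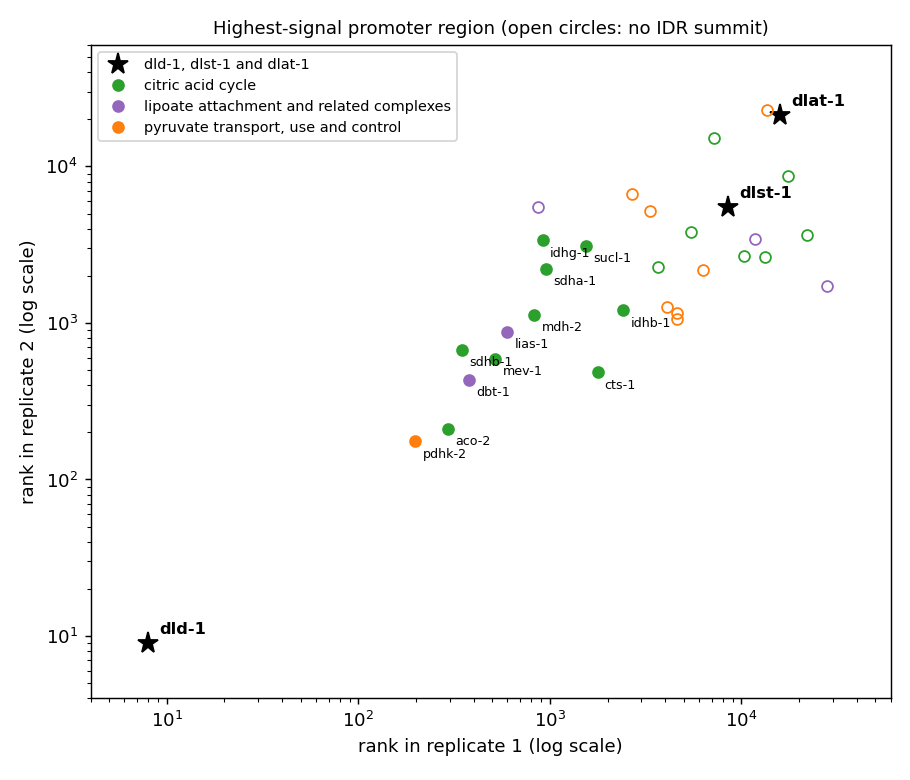
Rank of the highest-signal promoter region in replicate 1 and in replicate 2 (log scales) for genes with a summit in the window in both lists. Stars are dld-1, dlst-1 and dlat-1, and circles are genes of the 3 lists, filled where an IDR summit lies in the window. The star of dld-1 at ranks 8 and 9 lies far below pdhk-2, at 198 and 175, and dlst-1 and dlat-1 lie among the open circles.

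Of the citric acid cycle genes, 9 of 21 had an IDR peak, while the 2-oxoglutarate step, counted among the 6 genes, had none but that of dld-1. The highest were at aco-2, mitochondrial aconitase (signal 194, rank 251, a window shared with eef-1B.1), and at sdhb-1 (139, rank 399, shared with cup-15) and mev-1 (113, rank 509, shared with jmjd-4), subunits of succinate dehydrogenase. They were followed by mdh-2, mitochondrial malate dehydrogenase (83.6, rank 774, shared with F20H11.4), cts-1, citrate synthase (82.0, rank 796), and sdha-1, the flavoprotein of succinate dehydrogenase (63.0, rank 1149). Isocitrate dehydrogenase subunits came next, idhg-1 (62.3, rank 1166, shared with mlcd-1) and idhb-1 (53.6, rank 1462). The ninth gene, sucl-1, a succinate-CoA ligase subunit gene named after its value was seen, had a signal of 51.7 and rank 1541. The replicates ranked several of these unequally, with cts-1 at 1773 in replicate 1 and 484 in replicate 2, and idhg-1 at 918 and 3369. Below the IDR list were idha-1 (35.4, rank 2690), mdh-1 (33.6, rank 2911) and suca-1 (31.8, rank 3183). In replicate 1 the highest region ranked 3647 at idha-1 and 13207 at suca-1, and mdh-1 had no summit in the window, while in replicate 2 the ranks were 2284 at idha-1, 2645 at suca-1 and 2015 at mdh-1. The suca-1 summit lay 438 bp upstream in the pooled list and 405 bp in replicate 2, but 192 bp in replicate 1.

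Of the windows at these 12 pathway peaks, 3 held an exact copy of one of the 5 elements and 9 held none. The copies were of element 1 at sdhb-1 and of element 4 at aco-2 and mdh-2. None held an exact copy of the 13-letter run of dld-1, and inexact copies were not counted. The printed sdhb-1 window does hold a close but inexact copy of the run. Many of the letters before it also match those before the run at dld-1, at the same spacing. For comparison, 74 of the first 100 IDR windows, 18.4% of all IDR windows and 3.16% of flanks held at least 1 element.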

How the data were processed

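Per the labels, the samples are 2 biological replicates of 1 group, and the deposited list of files names, for each relaxed list, the alignments behind it and a control alignment that the replicates share. No caller, aligner, IDR threshold or read depth is given in the sources used here, so counting error is unknown. The signal, a score the authors deposited for every region, was used only to rank and describe regions within a list, and the −log10 q-value and the summit offset in bp were deposited beside it. The lists on ce10 were not used here. No region of the ce11 lists passed a chromosome end of the reference (0 regions).

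Ranks, distances and windows were computed with Python 3.11.15 and pandas 2.3.3 from Ensembl release 115 (WBcel235, 1-based coordinates), and window look-up was tested on simulated data. Sequences were read with Biopython 1.88. The 8-letter elements and the shared run were derived after the sequences were seen, the words by their share in the first 100 IDR windows over the flanking share plus 0.01. No test was made: the genes and lists were chosen with earlier results of these data known, and there is 1 group. One listed name, lipt-2, was not matched. Named genes are the 6 genes, genes sharing their summits, up to 8 genes per list with an IDR summit and up to 3 just below it, and the 5 genes of most similar replicate ranks. The genes pdp-1, lipt-1 and lpl-1 were named in addition, as genes without an IDR summit. Alternatives were other windows, overlap in place of summits, the most upstream start alone, stricter and wider lists, single replicates and order by q-value.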

Additional observations from a re-analysis of the deposited data

How the results depend on the processing

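The number of these 6 genes with an IDR summit stayed at 1, dld-1, with windows of 2000 and 500 bp or 500 and 100 bp, with any overlap of at least 1 bp, with the most upstream start alone and among IDR peaks at or above the median signal. With all pooled regions it was 4, since that list holds background as well. Leaving out a replicate, by taking the 1584 highest regions of the other, gave 1 to 1. The rank of dld-1 was 8 to 9 when a replicate was left out, and 1 by q-value, where it tied with 1342 regions in all. Its signal, 1798, was the same in each window alternative. The count of 12 pathway genes was 14 with the widest window and 12 with the other windows, and 12 to 12 when a replicate was left out, but not for the same genes. Without replicate 1, 9 of the 12 were kept, idhg-1, sdha-1 and sucl-1 were lost and mpc-1, mpc-2 and pck-2 were gained. Without replicate 2, 10 were kept, cts-1 and idhb-1 were lost and bckd-1A and gcst-1 were gained. The count of pathway genes fell to 7 among IDR peaks at or above the median signal and was 35 with all pooled regions, by construction of those lists. For the other windows, the peaks at or above the median and the single replicates, no share of all genes is given. Those counts therefore stand without a background. In the pooled list, not the IDR list, the widest window added a region at ogdh-1 (signal 48.5). That window and the overlap rule each added a pooled region at dlat-1 (12.1). The unknown depth and the absence of untagged samples limit every value. No paired analysis was possible because there is 1 group and no test.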

Other observations

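Noncoding RNA genes under the summits were counted because LLC1.120 covers that of dld-1. Of the 1584 IDR summits 134 (8.46%) lay inside an annotated gene of the broad ncRNA class, against 644 of 28416 (2.27%) pooled summits below the IDR list. Among the first 20 peaks dld-1 was the 1 such case.

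The 13-letter run of the dld-1 site occurs 208 times in the nuclear genome on either strand. Of these copies 28 (13.5%) lie inside an IDR region, 38 inside a pooled region below the IDR list, and 142 (68.3%), the dlat-1 copy among them, in no pooled region. Element 1 occurs 6292 times, and 198 copies (3.15%) lie inside an IDR region. The IDR windows with the run ranked from 8 to 1300, with a median rank of 233.5, and dld-1 was the first of them. Because the run and element 1 were taken from leading IDR peaks, these shares and ranks are only descriptive.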
